A study of Mus musculus with 6 samples.

Results

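The metalloproteases examined here are the matrix metalloproteases (Mmp), the membrane-anchored ADAMs (Adam), the secreted ADAMTS proteases (Adamts) and their protease-free ADAMTS-like relatives (Adamtsl), together with the tissue inhibitors of metalloproteases (Timp). Members were taken by gene symbol alone, and 84 of the 35976 rows in the count table carried such a symbol: 23 Mmp, 33 Adam, 19 Adamts, 5 Adamtsl and 4 Timp genes. RNA was sequenced from brown adipose tissue (BAT), the thermogenic fat depot, of 3 AKO mice and 3 control mice labelled WT. All were held at 4 °C for 4 h before the tissue was frozen. The paper refers to its wild-type controls as Flox mice, whereas the sample labels give only WT. AKO mice lack Cars2, a mitochondrial cysteinyl-tRNA synthetase that also makes cysteine persulfide, in adipose tissue, through floxed Cars2 and a Cre recombinase driven by the Adiponectin promoter. That Cre acts in adipocytes, whereas BAT also holds vessels, stromal cells, immune cells and nerves, and both groups were cold-exposed, so no library shows the tissue at room temperature.

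Metalloproteases of these families hold a zinc ion in the catalytic site and are made as inactive precursors. MMPs cut collagens, elastin, proteoglycans and many non-matrix proteins outside the cell, ADAMs release the outer part of membrane proteins such as cytokines, growth factors and adhesion molecules, and ADAMTS proteases process procollagens and cleave large proteoglycans. TIMPs bind to the active site and block it. In growing or inflamed fat these enzymes are known for remodelling the matrix around adipocytes and vessels, and several are made mainly by stromal cells or macrophages.

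Of the 84 members, 42 passed the filter on low counts and were tested, 24 had between 1 and 50 counts summed over the 6 libraries and were not tested, and 18 had no count in any library. Among the 42 tested, 19 were higher in AKO than in WT BAT, 3 were lower and 20 did not pass an adjusted p of 0.05 (edgeR quasi-likelihood test, Benjamini-Hochberg over all genes). The whole table moved widely too: 20.2% of the 13007 genes tested were called higher, 17.5% lower and 37.6% in either direction. The median log2 fold change, AKO over WT, was 0.50 over the tested members and 0.0088 over all genes tested, and 33 of the 42 had a positive value. Calls higher in AKO reached a log2 fold change of 1 or more in 13 members and in 11.4% of all genes, and calls lower in AKO reached −1 or less in 2 members and in 3.3% of all genes. Of the tested members, 6 (Mmp12, Timp1, Adamtsl2, Mmp11, Adamts7 and Adamtsl1) reached the level of the low-count filter in all AKO libraries but not in all WT libraries, and 1 (Adam1a) did so in all WT but not all AKO libraries. These members were tested because 1 group was high, the 6 all had positive values and 3 of them (Mmp12, Timp1 and Adamtsl2) were called higher, so the counts and the median over tested members describe them and support no statement about the families. All levels are relative to total RNA of a mixed tissue, in which fewer cells of a type and less RNA per cell cannot be told apart.

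**Figure D1:**
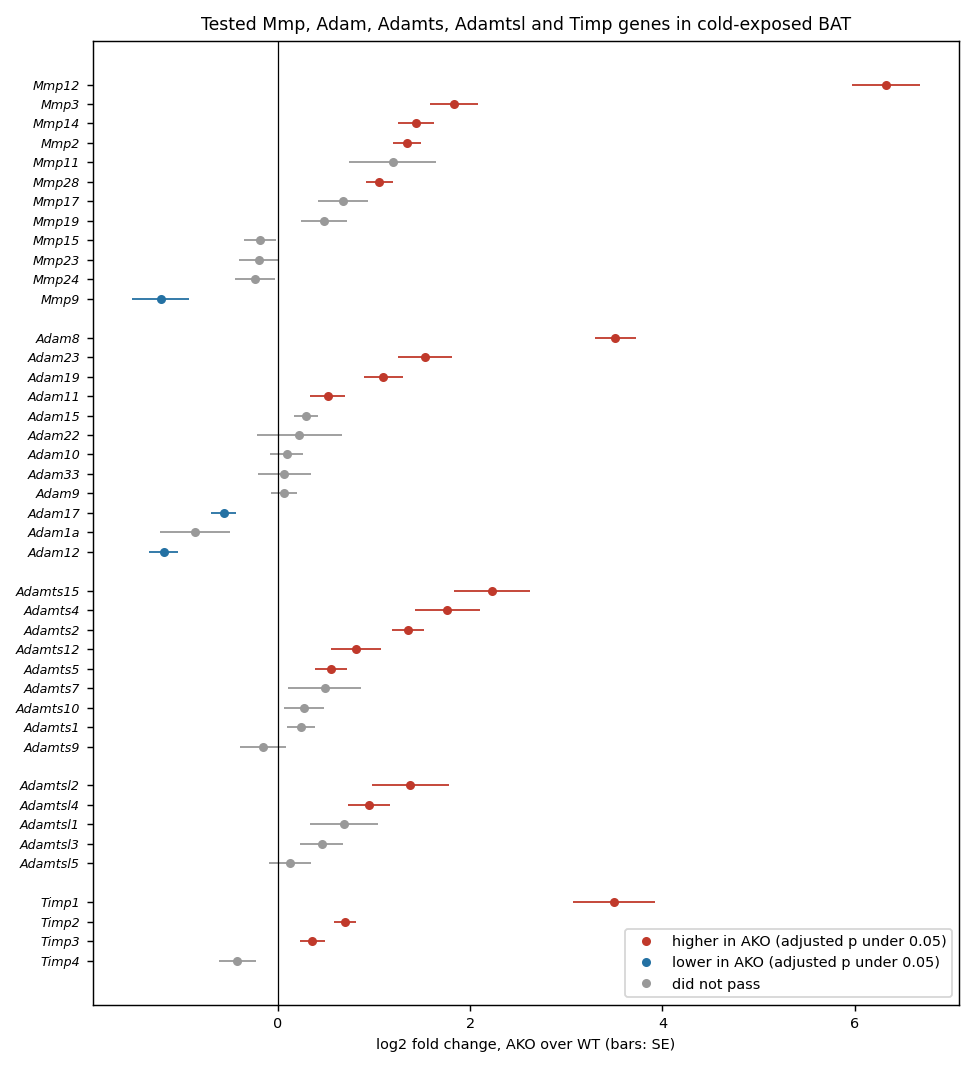
Log2 fold change, AKO over WT, with its SE for the 42 tested members, grouped by family and sorted within it; red marks calls higher in AKO, blue calls lower in AKO and grey the members that did not pass. Mmp12 stands furthest right at 6.32, and the 3 lower calls are Mmp9, Adam12 and Adam17.

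The sharpest contrast fell in a run of 10 Mmp genes that lie side by side on mouse chromosome 9, between 7272514 and 7699585 of GRCm38 (mm10), a stretch of 427 kb. In genome order they are Mmp13, Mmp12, Mmp1b, Mmp3, Mmp1a, Mmp10, Mmp8, Mmp27, Mmp20 and Mmp7, a tandem family of collagenases, stromelysins, matrilysin and macrophage metalloelastase. Promoters of this family are textbook carriers of an AP-1 element close to the start site, the recognition sequence of Fos and Jun proteins. The window of 250 bases before the annotated start is therefore shown for Mmp12, Mmp3 and Mmp13. They were chosen after their values were seen, as counted genes of the run with AKO above WT without overlap. Mmp27, at 4, 7 and 2 counts in AKO libraries, also lay above WT without overlap. It is not shown, and its window held no AP-1 match. The sequences are as given in the RefSeq table for GRCm38.p6, on the plus strand and 5′ to 3′. Capitals mark the AP-1 match, searched as TGAGTCA on both strands (its reverse complement is TGACTCA).
Mmp12, chr9:7347124-7347373: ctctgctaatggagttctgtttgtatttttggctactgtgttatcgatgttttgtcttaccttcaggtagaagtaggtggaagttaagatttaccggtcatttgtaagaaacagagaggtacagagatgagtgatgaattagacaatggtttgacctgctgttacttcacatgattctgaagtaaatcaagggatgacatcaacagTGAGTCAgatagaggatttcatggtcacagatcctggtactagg
Mmp3, chr9:7445572-7445821: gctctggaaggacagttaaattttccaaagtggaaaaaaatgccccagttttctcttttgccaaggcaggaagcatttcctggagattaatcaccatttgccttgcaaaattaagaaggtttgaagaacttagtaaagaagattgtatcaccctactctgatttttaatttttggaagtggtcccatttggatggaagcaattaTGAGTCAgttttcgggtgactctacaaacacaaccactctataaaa
Mmp13, chr9:7272264-7272513: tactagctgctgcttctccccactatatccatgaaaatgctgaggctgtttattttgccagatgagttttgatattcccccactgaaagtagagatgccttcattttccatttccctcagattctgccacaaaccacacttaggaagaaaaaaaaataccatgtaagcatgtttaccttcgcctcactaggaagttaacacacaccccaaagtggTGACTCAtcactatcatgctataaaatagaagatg
The match begins 44, 46 and 35 bases before the start in Mmp12, Mmp3 and Mmp13. For Mmp12 this is the downstream of the annotated starts, and the window of the upstream start held no match.

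An AP-1 match lay in a window of 7 of the 10 genes of the run, namely Mmp10, Mmp12, Mmp13, Mmp1a, Mmp1b, Mmp3 and Mmp7. Outside the run, only Adam19 and Adam29 had one among the 53 members with a RefSeq window, and over all genes in the table of promoters 5.16% did, or 4.46% of 32851 windows. A second element, PEA3 (AGGAAG on either strand), was found in 19 of the 53 members and in 32.3% of all genes, and in no member window did it overlap an AP-1 match. Mmp1a and Mmp7 carry the AP-1 match and had no count in any library. A match describes the sequence and not a bound site.

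Mmp12, the macrophage metalloelastase that degrades elastin, was the member with the largest fold change and ranked 5 by p among all 13007 genes tested. It had 37.8, 36.1 and 42.1 CPM (counts per 1000000 counts of the library, scaled by TMM factors) in AKO libraries 1 to 3, against 0.959, 0.382 and 0 CPM in WT libraries 1 to 3. These values rest on 315, 284 and 296 counts in AKO and 8, 3 and 0 counts in WT libraries. Every AKO library was far above every WT library, and the log2 fold change was 6.32 ± 0.36 (SE, adjusted p = 5.35e-07). Its exons share 2.17% of their bases with Mmp1b on the opposite strand, and Mmp1b had 1 count in all.

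Mmp3, or stromelysin-1, which cuts proteoglycans and fibronectin and activates other MMPs, had 30.2, 22.9 and 16.8 CPM in AKO libraries, against 7.67, 4.46 and 7.51 CPM in WT libraries. The lowest AKO library was above the highest WT library, with a log2 fold change of 1.83 ± 0.25 (adjusted p = 0.00015). Mmp13, the main interstitial collagenase of rodents, was too rare for the test, with 23, 9 and 14 counts in AKO and 2, 1 and 0 counts in WT libraries. Scaled to library size, its counts in AKO were 15.5 times those in WT (95% exact interval 4.99 to 78.0, counting error only). The remaining genes of the run were near or at the floor: Mmp8, the neutrophil collagenase, had 5, 4 and 3 counts in AKO and 5, 7 and 6 in WT libraries, Mmp27 had 4, 7 and 2 in AKO and 2, 2 and 2 in WT libraries, Mmp1b and Mmp10 had 1 count each, and Mmp1a, Mmp20 and Mmp7 had none. A count of 0 allows up to 3 counts, or 0.360 to 0.427 CPM depending on the library. Within a span of 427 kb, then, 2 genes were called higher and their neighbours stayed at the limit of detection or could not be tested.

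**Figure D2:**
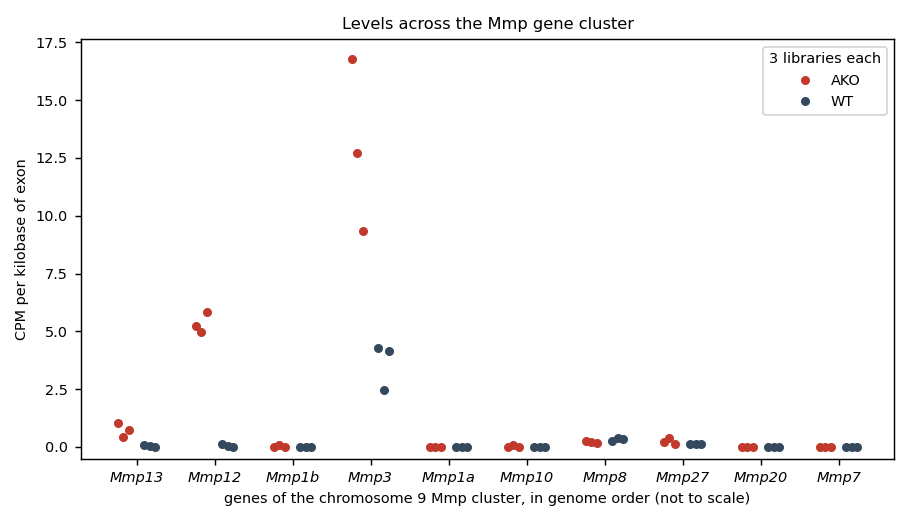
CPM per kilobase of annotated exon in each of the 3 AKO (red) and 3 WT (dark) libraries for the 10 Mmp genes of the chromosome 9 run, in genome order. Mmp12 and Mmp3 carry nearly all of the signal, and their AKO points lie above their WT points.

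The gelatinases, which cleave denatured collagen and basement membrane collagen, moved in opposite directions. Mmp2, made widely by fibroblasts, had 79.4, 73.7 and 70.0 CPM in AKO libraries, against 35.1, 27.4 and 25.4 CPM in WT libraries, a log2 fold change of 1.34 ± 0.14 (adjusted p = 2.91e-05). Mmp9, which neutrophils and macrophages are known to store or secrete, had 1.68, 1.52 and 1.42 CPM in AKO libraries, against 2.88, 3.95 and 4.10 CPM in WT libraries. It fell by 1.22 on the log2 scale (SE 0.30, adjusted p = 0.00666). Neither gene had overlapping groups, but Mmp9 stood at a level where a library holds few counts.

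Among the membrane-type MMPs, Mmp14 (MT1-MMP), which cleaves fibrillar collagen at the cell surface and, with TIMP2, activates pro-MMP2, had 36.7, 37.5 and 38.9 CPM in AKO libraries, against 17.5, 9.42 and 14.8 CPM in WT libraries. The AKO libraries were close to each other and all above WT, and the log2 fold change was 1.44 ± 0.19 (adjusted p = 0.000117). Mmp15, a second transmembrane form, had 15.7, 12.4 and 15.5 CPM in AKO libraries, against 18.5, 15.4 and 16.0 CPM in WT libraries, with overlapping groups and a log2 fold change of −0.19 ± 0.17 (adjusted p = 0.387). Mmp17, which is tethered by a lipid anchor, averaged 3.74 ± 0.15 CPM in AKO and 2.33 ± 0.25 CPM in WT libraries (SD, n = 3 each) without overlap, yet missed the threshold (log2 fold change 0.68 ± 0.26, adjusted p = 0.0604). Mmp24 gave −0.24 ± 0.21 (adjusted p = 0.393), and Mmp16 and Mmp25 had 6 and 27 counts in all. Of the 4 tested membrane-type genes, 1 was thus called higher (25%, beside 20.2% of all genes tested).

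Mmp28, or epilysin, had 31.1, 36.1 and 39.6 CPM in AKO libraries, against 16.7, 16.8 and 17.9 CPM in WT libraries, and rose by a log2 fold change of 1.05 ± 0.14 (adjusted p = 0.000139). The exons of Mmp28 share 12.0% of their bases with 1700020L24Rik on the opposite strand. Mmp19, a protease of stromal and vascular cells, had 112, 71.6 and 45.0 CPM in AKO libraries, against 57.6, 49.0 and 57.9 CPM in WT libraries. AKO library 3 was below all WT libraries and AKO library 1 well above them, and the log2 fold change of 0.48 ± 0.24 was not called (adjusted p = 0.138). Without AKO library 3 it became 0.75 (adjusted p = 0.00830). The exons of Mmp19 share 22.3% of their bases with Tmem198b and 6.00% with Gm47093, both on the opposite strand. Without the strand setting of the counting, its reads cannot be assigned with certainty. Mmp11, or stromelysin-3, averaged 3.27 ± 1.07 CPM in AKO and 1.43 ± 1.06 CPM in WT libraries (SD, n = 3 each) with overlap, and its log2 fold change of 1.19 ± 0.45 just missed the threshold (adjusted p = 0.0547). Mmp11 was called without AKO library 2 (1.39) or WT library 3 (1.89), with limma-voom (1.38), with a replicate block (1.26) and without the low-count filter (1.15). Mmp23 gave −0.20 ± 0.20 (adjusted p = 0.474), and Mmp21 had no count. Over the whole family, 5 of 12 tested Mmp genes were called higher and 1 lower, with a median log2 fold change of 0.86. These are 41.7% and 8.33%, beside 20.2% higher and 17.5% lower over all genes tested. Mmp12 and the uncalled Mmp11 reached the low-count filter level in all AKO but not all WT libraries, so the shares only describe these genes.

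**Figure D3:**
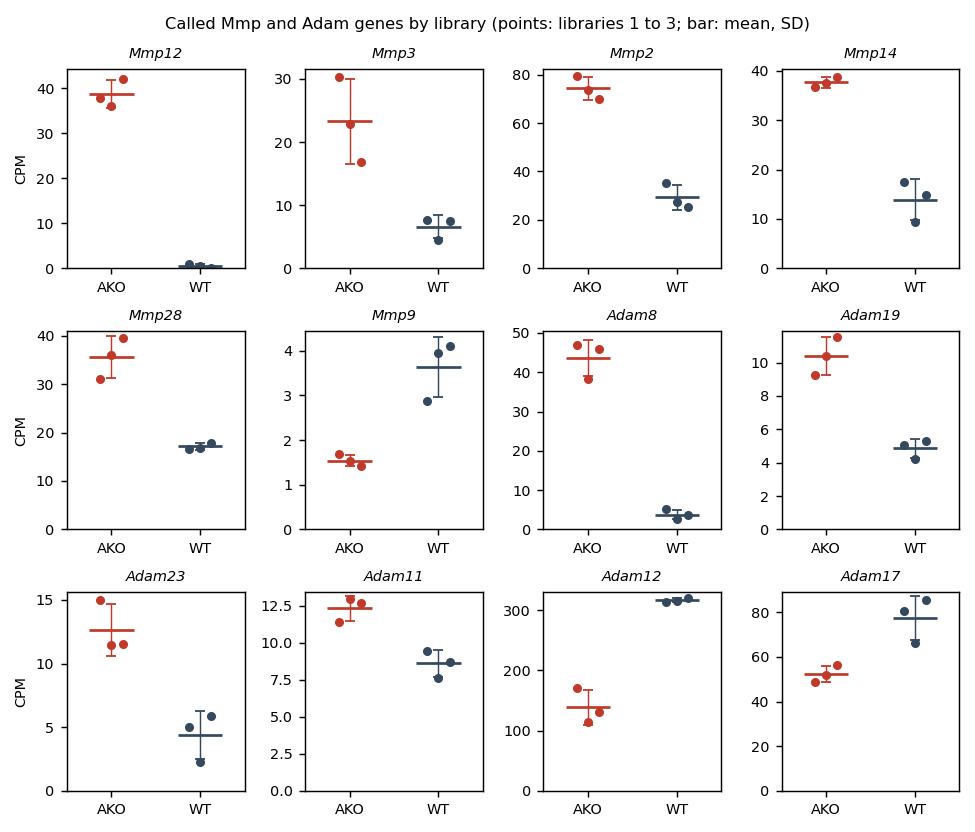
CPM in each library for the 12 called Mmp and Adam genes, with AKO left of WT; points are libraries 1 to 3, the wide bar is the mean and the error bar the SD. In each panel the 3 AKO points and the 3 WT points do not overlap, with WT above AKO for Mmp9, Adam12 and Adam17.

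Among the ADAMs, the largest change was in Adam8, a sheddase of myeloid cells that cleaves membrane proteins such as CD23 and L-selectin. Adam8 had 46.8, 38.4 and 45.8 CPM in AKO libraries, against 5.16, 2.67 and 3.55 CPM in WT libraries. It lies on chromosome 7 (139978932 to 139992562, minus strand), ranked 8 by p among all genes, and rose by a log2 fold change of 3.51 ± 0.21 (adjusted p = 6.57e-07). No WT library came near the lowest AKO library. Adam19, which processes neuregulins, had 9.24, 10.4 and 11.5 CPM in AKO libraries, against 5.04, 4.20 and 5.33 CPM in WT libraries (log2 fold change 1.09 ± 0.20, adjusted p = 0.00127).

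A pair of called ADAMs, Adam23 and Adam11, lack the zinc-binding residues and act as adhesion proteins, known best from the nervous system. Adam23 had 15.0, 11.4 and 11.5 CPM in AKO libraries, against 5.04, 2.29 and 5.87 CPM in WT libraries (log2 fold change 1.53 ± 0.28, adjusted p = 0.00114). Adam11 had 11.4, 13.0 and 12.7 CPM in AKO libraries, against 9.47, 7.64 and 8.74 CPM in WT libraries (0.52 ± 0.18, adjusted p = 0.0382). Neither pair of groups overlapped, but the Adam11 call was lost without any one of AKO library 2 (0.47), AKO library 3 (0.50), WT library 1 (0.59), WT library 2 (0.43) or WT library 3 (0.52), and with DESeq2 (0.49). Adam22, another member without protease activity, averaged 1.35 ± 0.47 CPM in AKO and 1.14 ± 0.52 CPM in WT libraries (SD, n = 3 each) and was not called (0.22 ± 0.44, adjusted p = 0.726).

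The ADAMs that fell were Adam12 and Adam17. Adam12, or meltrin alpha, a protease of mesenchymal cells tied to adipogenesis and muscle cell fusion in mice, had 170, 114 and 131 CPM in AKO libraries, against 314, 316 and 320 CPM in WT libraries. The WT libraries were nearly equal, all AKO libraries were far below them, and the gene fell by 1.19 on the log2 scale (SE 0.15, adjusted p = 8.05e-05). It lies on chromosome 7 (133883199 to 134232146, minus strand). Adam17, or TACE, the sheddase of TNF, of EGF receptor ligands and of TNF receptors, had 49.0, 51.8 and 56.2 CPM in AKO libraries, against 80.5, 66.5 and 85.4 CPM in WT libraries, and fell by 0.57 (SE 0.13, adjusted p = 0.00481). Again no AKO library reached the lowest WT library.

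Adam10, the sheddase closest to Adam17 and the protease that opens Notch receptors, averaged 30.4 ± 3.54 CPM in AKO and 28.6 ± 6.56 CPM in WT libraries (SD, n = 3 each), a log2 fold change of 0.088 ± 0.17 (adjusted p = 0.726). Adam15, expressed by endothelial and other cells, had 146, 123 and 137 CPM in AKO libraries, against 115, 120 and 97.1 CPM in WT libraries. The AKO libraries lay above WT by a narrow margin, and the log2 fold change of 0.29 ± 0.13 was not called (adjusted p = 0.0928). Its exons share 20.6% of their bases with an opposite-strand transcript, 4731419I09Rik, and without the strand setting of the counting the reads cannot be assigned with certainty. Adam9 had 53.9, 69.1 and 60.2 CPM in AKO libraries, against 57.2, 52.3 and 66.2 CPM in WT libraries, with full overlap (0.060 ± 0.14, adjusted p = 0.763). Adam33 gave 0.066 ± 0.28 (adjusted p = 0.873).

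The other Adam genes are known mainly from testis, epididymis and sperm. Adam1a was the only one of these 21 that was tested, with 1.20 ± 0.28 CPM in AKO and 2.20 ± 0.66 CPM in WT libraries (SD, n = 3 each) and a log2 fold change of −0.87 ± 0.36 that was not called (adjusted p = 0.0777). Since 63.7% of its exon bases lie also in the gene model Gm42878 on the same strand, the counts of Adam1a are uncertain. Adam4, which lies within Cox16 on the same strand, had 1, 1 and 2 counts in AKO and 9, 7 and 3 counts in WT libraries, 0.213 times as many in AKO (95% exact interval 0.0527 to 0.641, counting error only). Adam1b, Adam2, Adam3, Adam5, Adam21 and Adam32 had between 3 and 9 counts each. Adam18, Adam20, Adam24, Adam25, Adam26a, Adam26b, Adam29, Adam30, Adam34, Adam39, Adam6a, Adam6b and Adam7 had none, and neither did Adam28, an ADAM of lymphocytes and epididymis. Over the family, 4 of 12 tested Adam genes were called higher and 2 lower, with a median of 0.16. The share called lower, 16.7%, was near the 17.5% of all genes tested. The share called higher was 33.3%, beside 20.2% of all genes.

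None of the 9 tested Adamts genes was called lower, and 5 were called higher (55.6%). Over all genes tested, 17.5% were called lower and 20.2% higher. Adamts2, which removes the N-terminal propeptide of fibrillar procollagens, had 39.8, 34.0 and 29.8 CPM in AKO libraries, against 15.7, 11.6 and 13.4 CPM in WT libraries (log2 fold change 1.35 ± 0.17, adjusted p = 6.96e-05). Every AKO library was well above WT. The other N-proteinases, Adamts3 and Adamts14, had 35 and 50 counts in all and were not tested.

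The hyalectanases, which cleave versican and aggrecan, included genes with uneven AKO libraries. Adamts15 had 12.0, 26.2 and 8.11 CPM in AKO libraries, against 4.56, 2.55 and 2.73 CPM in WT libraries, and rose by a log2 fold change of 2.22 ± 0.40 (adjusted p = 0.000961). Adamts4, or aggrecanase-1, had 10.1, 14.5 and 5.98 CPM in AKO libraries, against 4.20, 2.16 and 2.60 CPM in WT libraries (1.76 ± 0.34, adjusted p = 0.00149). In both genes AKO library 2 was highest, and the groups did not overlap. Adamts5, or aggrecanase-2, had 14.3, 15.9 and 17.1 CPM in AKO libraries, against 11.6, 9.80 and 10.7 CPM in WT libraries (0.55 ± 0.17, adjusted p = 0.0198). The groups did not overlap, yet the Adamts5 call was lost without AKO library 3 (0.50), WT library 2 (0.49) or WT library 3 (0.54), and with DESeq2 (0.53).

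Adamts1 and Adamts9, the most abundant Adamts genes, did not pass. Adamts1 had 64.9, 87.5 and 60.5 CPM in AKO libraries, against 61.6, 58.8 and 59.6 CPM in WT libraries (0.24 ± 0.14, adjusted p = 0.207). Adamts9 had 46.6, 91.8 and 40.0 CPM in AKO libraries, against 74.5, 60.5 and 64.2 CPM in WT libraries (−0.16 ± 0.24, adjusted p = 0.644). AKO library 2 was the highest of all 6 libraries for both. For Adamts9 it decided the result: without it the gene was called lower, with a log2 fold change of −0.62 (adjusted p = 0.00678), whereas without AKO library 3 the value was 0.064. Adamts20 and Adamts8, the rest of this subgroup, had 29 and 3 counts.

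Adamts12, known to cleave COMP, had 7.08, 7.75 and 8.11 CPM in AKO libraries, against 6.12, 3.69 and 3.14 CPM in WT libraries (0.81 ± 0.26, adjusted p = 0.0262). Its call was lost without AKO library 2 (0.80), AKO library 3 (0.77), WT library 2 (0.70) or WT library 3 (0.62), and with DESeq2 (0.79). Adamts7, the closest relative of Adamts12, gave 0.48 ± 0.37 (adjusted p = 0.334), and Adamts10, linked to fibrillin microfibrils, 0.27 ± 0.21 (adjusted p = 0.335). Adamts6 had 5, 6 and 8 counts in AKO and 3, 4 and 3 counts in WT libraries, Adamts17 had 13 counts in all, and Adamts13, Adamts16, Adamts18 and Adamts19 had 1 or 2. Adamts13 is the von Willebrand factor protease, made mainly in liver.

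All 5 ADAMTS-like genes, secreted proteins of the matrix without a protease domain, were tested. Of these, 2 were called higher (40%, beside 20.2% of all genes tested) and none lower. Adamtsl2 and the uncalled Adamtsl1 reached the low-count filter level in all AKO but not all WT libraries, so the share only describes these genes. Adamtsl4, which binds fibrillin-1, had 9.96, 10.2 and 9.25 CPM in AKO libraries, against 6.24, 5.22 and 3.69 CPM in WT libraries (log2 fold change 0.95 ± 0.22, adjusted p = 0.00525). Adamtsl2, known from fibrillin and TGF-beta biology, had 2.52, 5.21 and 5.27 CPM in AKO libraries, against 2.64, 1.15 and 1.09 CPM in WT libraries (1.38 ± 0.40, adjusted p = 0.0166). It was the 1 called member whose groups overlapped, since AKO library 1 lay below WT library 1. Its call was lost without AKO library 2 (1.21), AKO library 3 (1.22), WT library 2 (1.17) or WT library 3 (1.16).

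Adamtsl3 had 5.28, 6.10 and 6.69 CPM in AKO libraries, against 4.20, 4.33 and 4.64 CPM in WT libraries, without overlap but not called (0.45 ± 0.22, adjusted p = 0.128). Adamtsl5 had 12.0, 9.53 and 10.4 CPM in AKO libraries, against 8.15, 8.15 and 13.1 CPM in WT libraries, and WT library 3 was the highest of the 6 (0.12 ± 0.22, adjusted p = 0.694). Adamtsl1 gave 0.69 ± 0.35 (adjusted p = 0.143).

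Of the 4 Timp genes, 3 were called higher (75%, beside 20.2% of all genes tested) and none was called lower (17.5% of all genes). Among the 3, Timp1 reached the low-count filter level in all AKO but not all WT libraries, so the share only describes these genes. Timp1, the inducible inhibitor, had 19.0, 9.40 and 7.97 CPM in AKO libraries, against 1.08, 0.509 and 1.64 CPM in WT libraries (log2 fold change 3.50 ± 0.42, adjusted p = 6.53e-05). AKO library 1 was highest, and the lowest AKO library was still above every WT library. Timp2, which inhibits MMPs broadly and takes part in MMP2 activation, had 95.7, 105 and 109 CPM in AKO libraries, against 63.3, 62.8 and 64.6 CPM in WT libraries (0.70 ± 0.12, adjusted p = 0.000573). Its replicates were tight in both groups.

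Timp3, which binds to the matrix and is the main inhibitor of ADAM17, had 281, 327 and 316 CPM in AKO libraries, against 243, 265 and 213 CPM in WT libraries (0.36 ± 0.13, adjusted p = 0.0456). The groups did not overlap, but the call was lost without any one of AKO library 2 (0.31), AKO library 3 (0.34), WT library 1 (0.37), WT library 2 (0.42) or WT library 3 (0.27). Timp4, which is expressed by adipocytes, had 88.5, 47.1 and 65.8 CPM in AKO libraries, against 101, 94.6 and 75.0 CPM in WT libraries, and was not called (−0.42 ± 0.20, adjusted p = 0.107). AKO library 1 lay within the WT range, and without it Timp4 was called lower (−0.67, adjusted p = 0.0100). Timp1, Timp3 and Timp4 each lie inside a synapsin gene on the opposite strand (Syn1, Syn3 and Syn2), and Timp3 shares 21.3% of its exon bases with Syn3.

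**Figure D4:**
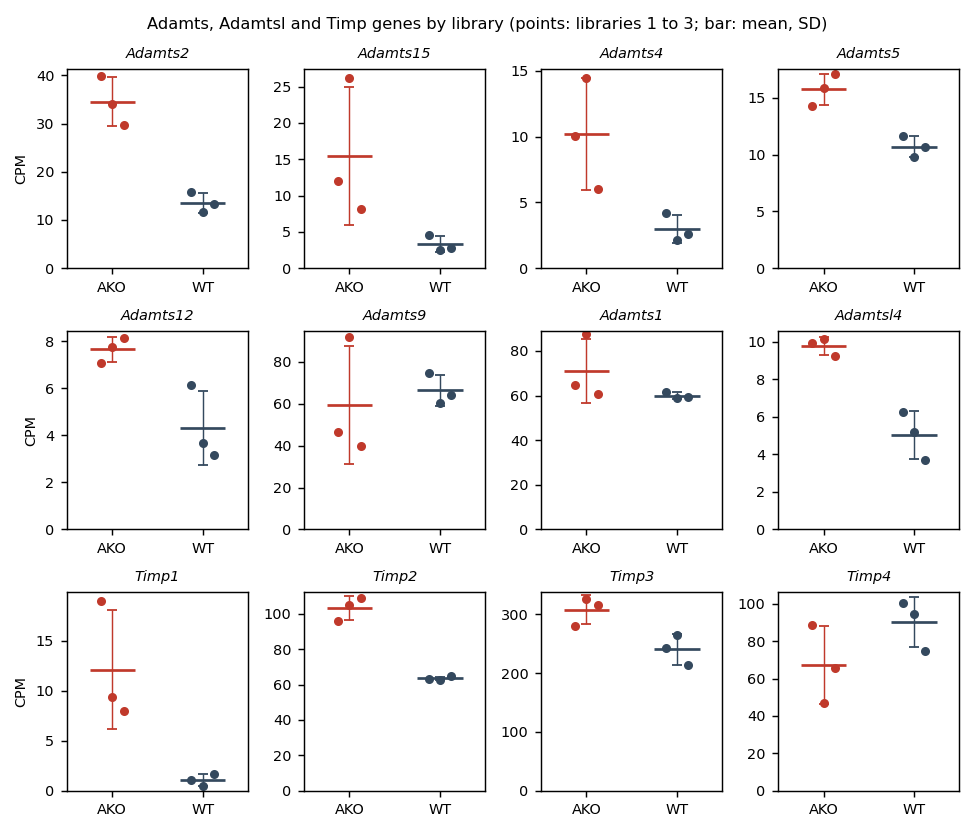
CPM in each library for 7 Adamts genes, Adamtsl4 and the 4 Timp genes, with AKO left of WT; points are libraries 1 to 3, the wide bar is the mean and the error bar the SD. The AKO points lie above the WT points for Timp1, Timp2, Timp3 and the 5 called Adamts genes, whereas Adamts9, Adamts1 and Timp4 overlap.

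Per length of annotated exon, the order of the members differed between the groups. In WT BAT, Adam12 (29.9 ± 0.289 CPM per kilobase, SD, n = 3) and Timp3 (29.5 ± 3.21) were highest and did not differ beyond their spread, followed at a distance by Adam15 (18.0 ± 1.95), Timp2 (16.3 ± 0.242) and Mmp19 (15.5 ± 1.43), of which Adam15 and Timp2, and Timp2 and Mmp19, did not differ beyond their spread. In AKO BAT, Timp3 (37.8 ± 2.97 CPM per kilobase) led, Timp2 (26.5 ± 1.74) came next, Mmp2 (20.8 to 23.6 over the libraries) and Adam15 (22.1 ± 1.89) could not be told apart, Mmp19 (21.6 ± 9.58, from 12.7 to 31.8) overlapped both of them and Timp2, and Adam12 (13.1 ± 2.71) had rank 9. Timp1 had rank 7 in AKO and rank 23 in WT libraries. Mmp2 had rank 3 in AKO and rank 10 in WT libraries.

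Summed over a family, Mmp genes reached 89.8 ± 13.4 CPM per kilobase in AKO and 47.4 ± 4.24 in WT libraries (SD, n = 3 each), and Timp genes 89.3 ± 5.32 in AKO and 62.3 ± 4.37 in WT libraries. The ratio of the Timp sum to the Mmp sum was 0.913, 0.985 and 1.11 in AKO libraries, against 1.27, 1.53 and 1.18 in WT libraries. All AKO ratios were below all WT ratios, with a narrow gap between AKO library 3 and WT library 3. The Mmp sum includes the uncalled Mmp19, whose reads cannot be assigned with certainty. Mmp19 had 31.8, 20.3 and 12.7 CPM per kilobase in AKO libraries, against 16.3, 13.9 and 16.4 in WT libraries. The Adam sum was 78.4 ± 3.29 CPM per kilobase in AKO and 83.6 ± 3.20 in WT libraries, with overlapping libraries, and the Adamts sum was 29.4 ± 6.10 in AKO and 21.6 ± 1.76 in WT libraries. Exon length is the union over annotated transcripts, which understates the level of genes with long alternative exons, and these sums describe RNA and not enzyme activity.

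**Figure D5:**
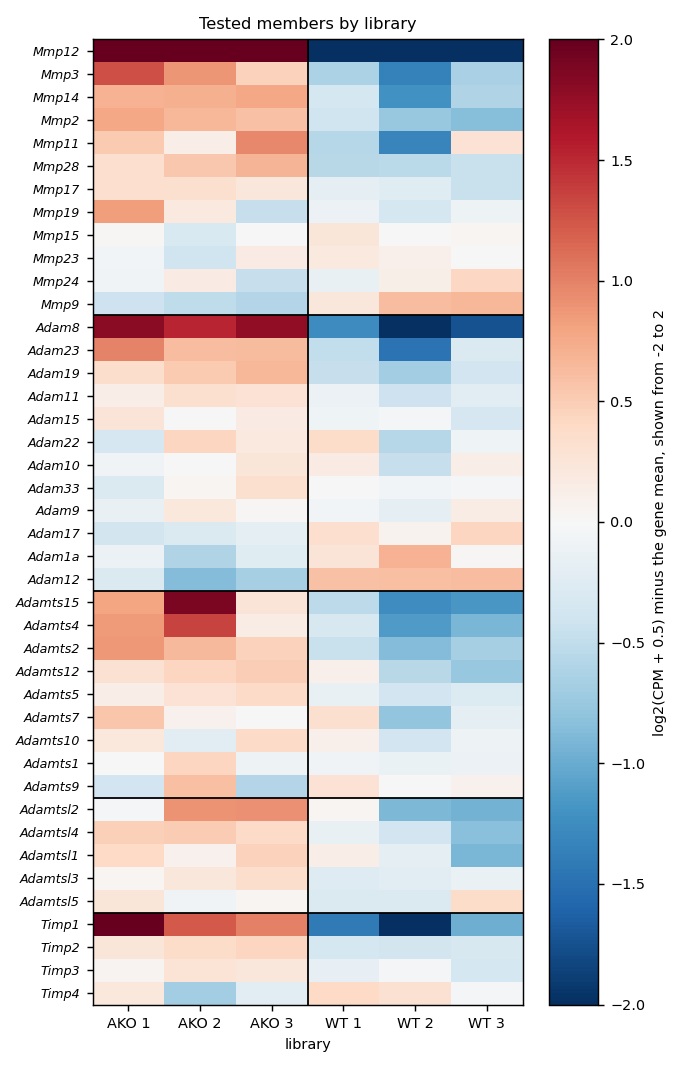
log2(CPM + 0.5) minus the gene's mean over the 6 libraries for the 42 tested members, by family, with AKO libraries left of WT libraries and colours limited to −2 to 2. Most rows are red in AKO and blue in WT; the exceptions include Mmp9, Adam12 and Adam17, and AKO 2 stands out in Adamts15, Adamts4, Adamts1 and Adamts9.

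Genes that activate these enzymes, hold them in check or serve as their substrates were counted in 6 lists. Beside these counts, 20.2% of all genes tested were called higher, 17.5% lower and 37.6% in either direction. Of 7 tested activators, 3 rose and 2 fell: Plaur, the urokinase receptor (log2 fold change 1.44 ± 0.35), Plau and Plat rose, and the proprotein convertases Furin (−0.69 ± 0.13) and Pcsk6 (−0.55 ± 0.14), of a family that removes the prodomain of MT-MMPs and ADAMs, fell. Of 9 tested proteases of other classes, 6 rose and none fell, including the cathepsins Ctss (134 ± 29.6 CPM in AKO and 12.6 ± 2.40 CPM in WT libraries) and Ctsk (log2 fold change 1.83 ± 0.23) and the serine protease Htra1 (0.91 ± 0.13). Of 13 tested inhibitors and clearance factors, 5 rose, among them Thbs1 (4.05 ± 0.43), Pcolce, the procollagen C-proteinase enhancer (1.44 ± 0.14), Lrp1, the endocytic receptor that clears MMPs and TIMPs (0.79 ± 0.12), and Thbs2, while Bsg, the MMP inducer basigin, fell by 0.72. Reck, a membrane-bound MMP inhibitor, gave 0.10 ± 0.25 (adjusted p = 0.770). Plau, Plat, Thbs2, Bsg and Reck are named after their values were seen.

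Of 7 tested partners of ADAM10 and ADAM17, 4 rose and 1 fell. Rhbdf2, the iRhom2 that carries ADAM17 to the cell surface, averaged 23.8 ± 3.59 CPM in AKO and 13.7 ± 1.45 CPM in WT libraries (SD, n = 3 each), a log2 fold change of 0.79 ± 0.16 (adjusted p = 0.00247), opposite in sign to that of Adam17. The ADAM10-binding tetraspanins differed in sign, with 0.68 ± 0.22 for Tspan5 and −0.42 ± 0.14 for Tspan15. Frmd8, an iRhom-binding protein, and Tspan17 also rose, and are named after their values were seen. Of 16 tested shed ligands and receptors, 7 rose, of which those of lowest p were Sdc1 (3.59 ± 0.33), Cd44 (2.33 ± 0.21) and Tnfrsf1b (1.22 ± 0.15), and 1 fell, Tnfrsf1a, named after its value was seen (−0.57 ± 0.14). Of 11 tested matrix substrates, 8 rose and none fell, among them Col1a2 (1.50 ± 0.16), Col1a1 (1.56 ± 0.19) and Col3a1 (1.59 ± 0.21). The median log2 fold change was −0.14 for activators, 0.91 for the other proteases, 0.33 for inhibitors and clearance factors, 0.50 for partners, 0.81 for shed proteins and 0.56 for substrates. Over all genes tested the median was 0.0088, with 20.2% called higher and 17.5% called lower.

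Markers of some other cells of BAT also differed between the groups and those of others did not, and their part in the results was not tested. Over all genes tested, 20.2% were called higher and 17.5% lower. All 12 macrophage markers, of 12 tested, were called higher, with a summed level of 865 to 1202 CPM in AKO and 221 to 266 CPM in WT libraries, beside Mmp12, Adam8 and Ctss. Of 9 fibroblast and progenitor markers, 6 were called higher and none lower (456 to 575 CPM in AKO and 231 to 313 CPM in WT libraries), beside Mmp2, Mmp14, Mmp3, Adamts2, Timp1 and the collagens. Neutrophil markers were near 0, with 2 of 10 tested and none called (6.83 to 10.7 CPM in AKO and 3.00 to 9.93 CPM in WT libraries), beside Mmp8 and Mmp9. Of 5 tested mast cell markers, 4 were higher (22.9 to 38.0 CPM in AKO and 12.0 to 15.4 CPM in WT libraries), and the 1 tested T cell marker was higher. Among 7 endothelial markers, 1 was higher and 2 lower, and among 7 mural markers, 1 was higher. The 1 tested mesothelial marker was not called. All 9 skeletal muscle markers were higher (794 to 1687 CPM in AKO and 82.0 to 376 CPM in WT libraries), so muscle RNA differed between the groups as well. The brown adipocyte markers that define the tissue were abundant in every library but all 6 were lower (5571 to 9118 CPM in AKO and 19098 to 20498 CPM in WT libraries), while of 6 general adipocyte markers 3 were lower and 1 higher (7395 to 10760 CPM in AKO and 11711 to 13758 CPM in WT libraries), beside Timp4 and Adam12. Of 6 testis and epididymis markers, 4 had no count and the 1 tested was not called, beside the silent Adam genes.

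Total counts ranged from 6540619 to 8461685 per library, and the members took 0.168%, 0.160% and 0.165% of them in AKO libraries, against 0.143%, 0.126% and 0.134% in WT libraries. Cars2 had 220, 248 and 132 CPM in AKO libraries, against 786, 459 and 632 CPM in WT libraries (log2 fold change −1.64 ± 0.23, adjusted p = 0.000192), in the direction of the labels. Of the 42 tested members, 25 had groups without overlap (50.1% of all genes), 21 with AKO above WT (25.7% of all genes) and 4 with AKO below (24.4%), and 21 of the 22 calls were among them. When libraries were scaled by totals alone, the median of all genes moved to 0.10 and 65.2% of all calls were higher in AKO, against 53.6% with TMM factors, and no tested member changed sign.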

How the data were processed

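BAT of 3 AKO and 3 WT mice was extracted with Trizol, and poly(A) RNA was captured on oligo(dT) beads and sequenced on a DNA nanoball platform. The authors deposited whole-number counts per gene, without normalization. The study's methods name STAR, HTSeq and DESeq2, whereas the submitters' processing notes list mm10, Bowtie2, RSEM 1.3.1 and DESeq2 1.4.5 with no roles; for the strand option, the handling of multi-mapping reads and the annotation release, no value is given in the sources used here. Pairs of libraries of a group differed beyond counting noise (chi-square per degree of freedom 5.56 to 19.2). P-values measure the spread between these mice only.

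In R 4.3.3, edgeR 4.0.16 was run on all genes (filterByExpr by group with a minimum count of 10, TMM factors of 0.930 to 1.08, glmQLFit and glmQLFTest with genotype as the only term), and Benjamini-Hochberg adjustment covered the 13007 genes tested. The SE is the size of the log2 fold change over the square root of F. Alternatives were other scalings, DESeq2 1.42.0, limma-voom (limma 3.58.1), other filters, a replicate block and leaving out each library. Intervals of count ratios are exact at 95% and cover counting error only. Positions and exon lengths come from GENCODE M21 (GRCm38), in which all 84 members were found.

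Values in every library are given for all Timp genes and, per family, for up to 6 called members of lowest p and the 2 most abundant uncalled ones; up to 3 called genes of lowest p are named per pathway list. Members, lists and tests were chosen with earlier results of these data known. Not every gene that this rule or the lists name is reported here.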

Additional observations from a re-analysis of the deposited data

How the results depend on the processing

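Members called higher numbered 19 with TMM factors, 19 with RLE factors, 21 with upper-quartile factors or library totals, 17 with DESeq2, 20 with limma-voom, 20 without a low-count filter and 19 with a mean of at least 5 CPM. Leaving out 1 library gave 15 to 19 higher and 3 to 4 lower. Without a low-count filter, 5 members were called lower against 3, adding Timp4 (−0.46) and the rare Adam4 (−2.15). Mmp13 (3.76), Mmp11 (1.15) and Mmp19 (0.44) were called higher there, while Timp3 (0.32) and Adam11 (0.48) were not. Of the 19 higher calls, 17 were kept. The adjusted p of Mmp12 in this setting was 3.96e-106 (edgeR quasi-likelihood test), against 5.35e-07 with the filter and the same libraries. P-values that small cannot be read as the spread between 3 mice per group, and the calls added in this setting carry little weight. Uncalled values changed sign for Adam9 (−0.042 without AKO replicate 2 and −0.023 without WT replicate 2, in a range of −0.042 to 0.15 over all settings). They also did for Adamts9 (0.064 without AKO replicate 3, in a range of −0.62 to 0.064). Adam10 (−0.099 to 0.20), Adam22 (−0.070 to 0.63) and Adam33 (−0.11 to 0.24), also uncalled, crossed 0 over the settings too. Of the 22 calls, 17 were kept in each of the 15 settings that tested them; Adam11, Adamts5, Adamts12, Adamtsl2 and Timp3 lost theirs in at least 1. The cause of these changes was not tested, beyond the fewer libraries or genes in some settings. Deviations of same-numbered libraries correlated at −0.020, 0.012 and 0.17 across genes, and those of differently numbered libraries at −0.22 to 0.18. The shared replicate numbers thus gave no sign of pairing, but 3 libraries per group are too few to settle whether the libraries were paired. With a replicate block, 19 members were higher and 4 lower; Adam11 was no longer called (0.52, adjusted p = 0.0520 by edgeR) while Mmp11 (1.26, adjusted p = 0.0152) and Timp4 (−0.45, adjusted p = 0.0496) were. The low-count filter left out members that averaged about 1 CPM or less.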
